A study of Mus musculus with 8 samples.

Results

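The ErbB family of receptor tyrosine kinases was followed in RNA-seq of mouse ventral hippocampus through 10 genes: the receptors *Egfr*, *Erbb2*, *Erbb3* and *Erbb4*, the inhibitors *Errfi1* and *Lrig1*, and the ligands *Nrg1*, *Nrg2*, *Nrg3* and *Hbegf*. They were chosen by function and found by symbol in GENCODE M21 (GRCm38), which gave 1 row each among the 50686 genes of the count table. All 10 passed the filter on low counts that kept 16018 genes for testing. The libraries came from male mice of the strain given in the labels as C57B6/J, 8 weeks old, with 1 animal per library. Of these, 4 received an injection of vehicle (replicates 1 to 4) and 4 an injection of corticosterone at 3 mg/kg (replicates 5 to 8), and the tissue was collected 3 h later. No other agent or allele was named for either group, and the comparison asks which genes respond to an acute dose of the main glucocorticoid (GC) of rodents. Each library was a stranded mRNA library from a whole piece of ventral hippocampus, so fewer cells of a type and less RNA per cell cannot be told apart in any value below.

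ErbB receptors are activated when a ligand of the epidermal growth factor (EGF) family brings receptors together in pairs, after which the kinase domains phosphorylate each other and recruit adaptors of the Ras-ERK and PI3K-Akt pathways. ErbB2 has no known ligand of its own and ErbB3 has little kinase activity, so both work mainly as partners of the other receptors. In the hippocampus, ErbB4 is best known from GABAergic interneurons, where neuregulins act on it, ErbB3 from the oligodendrocyte lineage, and EGFR from astrocytes and glial precursors. *Errfi1* (also called Mig-6) encodes a feedback inhibitor that binds the kinase domain of activated EGFR and ErbB2, and *Lrig1* encodes a membrane protein that lowers receptor levels.

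Between 17492159 and 19931987 reads per library were counted on genes. Neuronal markers of the tissue were abundant: *Snap25*, a synaptic vesicle fusion protein, had a mean of 305 reads per kilobase of exon per 1000000 reads (RPKM) in the vehicle libraries and *Slc17a7*, the glutamate transporter of excitatory neurons, 332. Corticosterone replicate 5 stood apart from the other corticosterone libraries, with 1.48% of its reads ambiguous between genes against 1.25% to 1.28%, and vehicle replicate 4 from the other vehicle libraries, with 1.40% against 1.64% to 1.67%. Of the other cell types whose markers were read, the 5 microglia markers summed to between 6438 and 6679 normalized counts after vehicle and between 5105 and 6281 after corticosterone, and these ranges did not overlap. The 6 astrocyte markers (43077 to 47175 and 40830.4 to 45735), the 6 glutamatergic neuron markers (42000.0 to 53390.2 and 38882 to 48462), the 4 CA2 markers (2496 to 3004 and 2265 to 2881), the 6 choroid plexus markers (414 to 1311 and 616 to 1366), the 5 erythrocyte markers (1591 to 5045 and 1545 to 2013) and the 3 pan-neuronal markers (73276 to 81745 and 73813 to 85624) overlapped between the groups. Corticosterone was set against vehicle in edgeR (quasi-likelihood test), p values were adjusted over all genes tested by Benjamini and Hochberg, and the threshold was an adjusted p value of 0.05. Of all genes tested, 0.00624% passed this threshold and 9.03% had an unadjusted p value under 0.05.

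None of the 10 ErbB genes passed the threshold in edgeR over all genes tested, and 2 of them had an unadjusted p value under 0.05: *Errfi1*, which was higher after corticosterone as were 4.51% of all genes at that p value, and *Erbb3*, which was lower as were 4.52%. With DESeq2, the tool of the study, 1 of the 10 passed (*Errfi1*), where 0.374% of all genes did. The values of the groups overlapped in all 10 genes, while 3.66% of all genes tested did not overlap, 1.99% with higher and 1.68% with lower values after corticosterone. The median log2 fold change of the 10 genes was 0.031, beside 0.0036 for all genes tested.

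*Errfi1* (ENSMUSG00000028967) lies on chromosome 4 of GRCm38 from 150853919 to 150868892, on the plus strand. RefSeq gives it transcription starts at separate positions, and the 250 bases before each are shown because *Errfi1* had the smallest p value of the 10 genes. The first window is chr4:150853546-150853795 and the second, inside the first intron of the longer GENCODE transcript, is chr4:150854820-150855069, both on the plus strand of GRCm38.p6. Capitals mark letters that match a searched motif.
*Errfi1* first start: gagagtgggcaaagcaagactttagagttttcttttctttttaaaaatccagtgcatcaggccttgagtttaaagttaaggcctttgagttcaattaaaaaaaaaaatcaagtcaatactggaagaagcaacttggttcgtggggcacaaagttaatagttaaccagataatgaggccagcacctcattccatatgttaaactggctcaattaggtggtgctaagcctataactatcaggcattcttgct
*Errfi1* second start: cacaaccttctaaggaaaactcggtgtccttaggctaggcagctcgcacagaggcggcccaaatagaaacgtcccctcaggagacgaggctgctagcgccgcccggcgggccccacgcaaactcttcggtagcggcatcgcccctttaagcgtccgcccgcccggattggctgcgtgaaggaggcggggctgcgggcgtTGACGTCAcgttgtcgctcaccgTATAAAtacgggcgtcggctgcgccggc

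In the second window, TGACGTCA, the cyclic AMP response element, begins 51 bases before the start, and TATAAA, the TATA box, begins 28 bases before it. The first of these motifs was found in 1.55% of 32851 RefSeq promoter windows of the same length and TATAAA in 12.4%, on either strand. Neither *Errfi1* window held TGTTCT, the core of the glucocorticoid response element, on either strand (in 16.1% of all windows), and so neither held the whole element, AGAACA and TGTTCT 3 bases apart (in 0.00913%). Promoters of 6 of the 10 genes were in the table, and the windows of *Egfr*, *Erbb2*, *Erbb4*, *Nrg3* and *Lrig1* held none of the 4 motifs. The absence of a match says only that these letters are not in these 250 bases, and the counts, which are summed per gene, do not tell the starts of *Errfi1* apart.

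*Errfi1* had 1194, 910.0, 942 and 956 normalized counts in vehicle replicates 1 to 4 and 1183, 1600.1, 1548 and 1313 in corticosterone replicates 5 to 8. Vehicle replicate 1 and corticosterone replicate 5 lay next to each other and made the groups overlap, and the other 3 corticosterone libraries were above every vehicle library. The vehicle group had a mean of 1000.45 ± 131 normalized counts and the corticosterone group one of 1411 ± 197 (SD, n = 4 mice each), which is 41.1% higher. On the log2 scale this is a fold change of 0.50 (standard error, SE, 0.11, 95% interval 0.26 to 0.74), with an unadjusted p of 0.000655 and an adjusted p of 0.239 from the quasi-likelihood test of edgeR. The adjusted p was 0.0245 with DESeq2, 0.00803 in edgeR with no filter on low counts, where 0.287% of all genes passed, and 0.0108 in edgeR without corticosterone replicate 5. Over all alternatives it ranged from 0.00803 to 0.715, and the log2 fold change from 0.43 to 0.59. The study listed *Errfi1* as a GC target partly on these libraries, so this difference is not independent evidence of its direction.

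Vehicle replicate 1, the vehicle library with the most *Errfi1*, also had the most reads on the 7 oligodendrocyte markers, 104955 normalized counts in all against 59986 to 78228 in the other vehicle libraries. The part of these cells in its *Errfi1* value was not tested. Without that library, the *Errfi1* values of the groups did not overlap and the log2 fold change was 0.59.

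**Figure D1:**
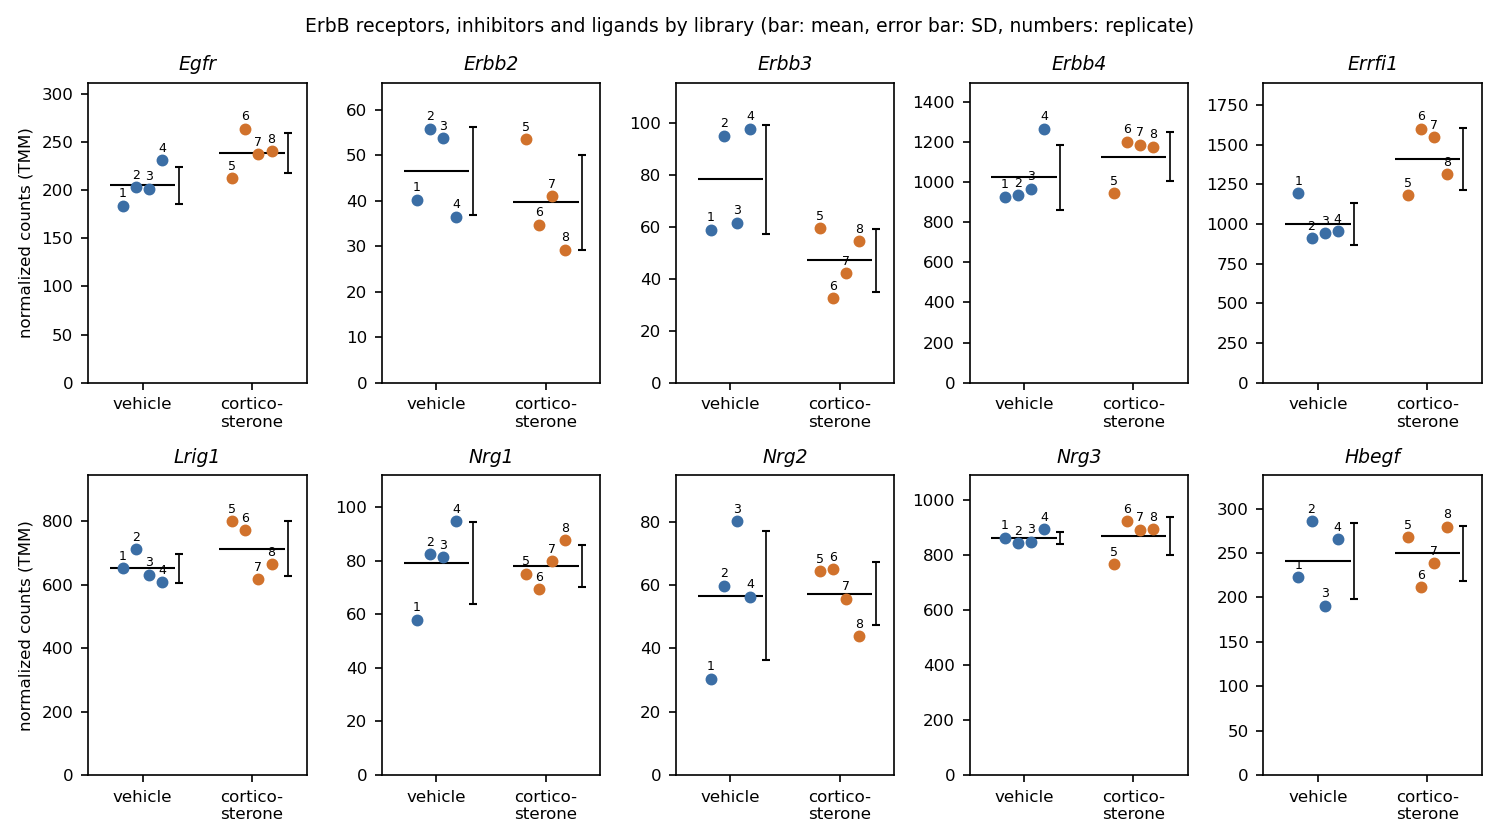
Normalized counts (vertical axes, from 0) of the 10 ErbB genes in the 4 vehicle libraries (blue) and the 4 corticosterone libraries (orange), with replicate numbers, the mean as a bar and the SD as an error bar. *Errfi1* was higher in corticosterone replicates 6, 7 and 8 than in any vehicle library, *Egfr* was likewise higher in them, *Erbb3* was lower in them, and the other 7 genes overlapped more widely.

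*Lrig1* (ENSMUSG00000030029, chromosome 6 from 94604529 to 94700158), the other inhibitor, had 652, 713, 632 and 609 normalized counts in the vehicle libraries and 801, 771, 617 and 664 in the corticosterone libraries. Corticosterone replicates 5 and 6 were above every vehicle library and replicates 7 and 8 lay within the vehicle range. Its log2 fold change was 0.13 (SE 0.097, 95% interval -0.078 to 0.34, edgeR adjusted p = 0.625). It was 0.21 after correction of each library for its trend with GC content and length, with an adjusted p of 0.383 from edgeR, and 0.070 without corticosterone replicate 5.

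Among the receptors, *Erbb3* (ENSMUSG00000018166, chromosome 10 from 128567523 to 128589652) differed most. It had 58.9, 95.01, 61.6 and 97.7 normalized counts in vehicle replicates 1 to 4 and 59.5, 32.5, 42.04 and 54.6 in corticosterone replicates 5 to 8. Corticosterone replicates 6, 7 and 8 were below every vehicle library, while replicate 5 was level with vehicle replicate 1. The vehicle mean was 78.3 ± 20.9 normalized counts and the corticosterone mean 47.2 ± 12.2 (SD, n = 4 mice each). This is a log2 fold change of -0.72 (SE 0.23, 95% interval -1.23 to -0.22), with an unadjusted p of 0.00852 and an adjusted p of 0.465 from edgeR. These values rest on 30 to 99 reads per library.

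Without corticosterone replicate 5, the *Erbb3* values did not overlap between the groups, the log2 fold change was -0.85 and the adjusted p was 0.0423 in edgeR. In that fit 2 of the 10 ErbB genes passed the threshold, *Errfi1* and *Erbb3*, while 10.2% of all genes did. Over all alternatives the adjusted p of *Erbb3* ranged from 0.0423 to 0.919, with a log2 fold change from -0.85 to -0.59.

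Other genes of the oligodendrocyte lineage were read beside *Erbb3*. None of those named here passed the threshold in edgeR with all 8 libraries and the filter on low counts. *Sox10*, the transcription factor that defines this lineage, had a vehicle mean of 675 ± 108 normalized counts and a corticosterone mean of 393 ± 142 (SD, n = 4 each), a log2 fold change of -0.78 (edgeR adjusted p = 0.313). It passed with DESeq2 (adjusted p = 0.0305), in edgeR with no filter on low counts (adjusted p = 0.00276) and in edgeR without corticosterone replicate 5 (adjusted p = 0.00542). *Cspg4*, a proteoglycan of oligodendrocyte precursors and pericytes, had a log2 fold change of -0.37 (edgeR adjusted p = 0.529). *Pdgfra*, the growth factor receptor that marks the precursors, went the other way with 0.20 (edgeR adjusted p = 0.499). Without corticosterone replicate 5 the edgeR adjusted p was 0.0196 for *Cspg4* and 0.0352 for *Pdgfra*. Without corticosterone replicate 6 the log2 fold change of *Cspg4* was -0.24, as it was with the trend with GC content and length removed. All 7 oligodendrocyte markers had negative log2 fold changes, with a median of -0.28, and 3 of them (*Mbp*, *Mag* and *Cnp*) had an unadjusted p under 0.05 in edgeR, beside 9.03% of all genes. Their summed level was 59986 to 104955 normalized counts after vehicle and 58552 to 72344 after corticosterone, with overlap. The 5 markers of oligodendrocyte precursors summed to 5035 to 6107 and 4698 to 5688. *Cldn5*, a tight junction protein of endothelial cells, had a log2 fold change of -0.72 (edgeR adjusted p = 0.472, 0.0396 with no filter and 0.0134 without corticosterone replicate 5), and all 5 endothelial markers had negative values. The 5 summed to 1788 to 1994 after vehicle and 1531 to 1672 after corticosterone, with no overlap. The part of either cell type in the *Erbb3* difference was not tested. Over the 8 libraries, Pearson's r of *Erbb3* on the log2 scale was 0.77 with *Sox10*, 0.75 with *Cspg4*, 0.44 with *Mbp* and 0.87 with *Cldn5*, as a description of libraries that share the treatment split.

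*Erbb4* (ENSMUSG00000062209, chromosome 1 from 68032186 to 69108059), the neuregulin receptor, was the most abundant of the receptors. It had 927, 934, 965 and 1265 normalized counts in the vehicle libraries and 944, 1199.8, 1184 and 1176 in the corticosterone libraries. The values lay at separate levels that followed treatment in 6 of the 8 libraries, with vehicle replicate 4 beside corticosterone replicates 6 to 8 and corticosterone replicate 5 beside vehicle replicates 1 to 3. The 4 libraries with more *Erbb4* were also the 4 with the lowest share of ambiguous reads, 1.25% to 1.40% against 1.48% to 1.67%. On average *Erbb4* differed by a log2 fold change of 0.14 (SE 0.11, 95% interval -0.10 to 0.38, edgeR adjusted p = 0.645). It was 0.25 without vehicle replicate 4, 0.091 without vehicle replicate 1, 0.21 without corticosterone replicate 5 and 0.016 with the trend with GC content and length removed.

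The 6 interneuron markers did not relate to *Erbb4* in one direction. Over the 8 libraries, Pearson's r with *Erbb4* on the log2 scale was 0.93 for *Gad2* and 0.76 for *Gad1*, the GABA-synthesizing enzymes, and 0.82 for *Vip*, a neuropeptide. It was -0.78 for *Slc32a1*, the vesicular GABA transporter, -0.84 for the neuropeptide *Sst* and 0.086 for *Pvalb*, a calcium-binding protein. None of the 6 interneuron markers had an unadjusted p under 0.05 in edgeR, where 9.03% of all genes did. Their summed level was 17565 to 19756 normalized counts after vehicle and 17432 to 19414 after corticosterone.

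*Egfr* (ENSMUSG00000020122, chromosome 11 from 16752203 to 16918158), the receptor of EGF and HB-EGF, had 184, 203, 201 and 231 normalized counts in the vehicle libraries and 212, 264, 238 and 241 in the corticosterone libraries. Corticosterone replicates 6, 7 and 8 were above every vehicle library, and replicate 5 lay below vehicle replicate 4. *Egfr* had a log2 fold change of 0.22 (SE 0.11, 95% interval -0.019 to 0.46, edgeR unadjusted p = 0.0686 and adjusted p = 0.545). It was 0.13 with the trend with GC content and length removed, and 0.27 without corticosterone replicate 5, with an adjusted p of 0.120 from edgeR.

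*Erbb2* (ENSMUSG00000062312, chromosome 11 from 98412470 to 98437716), the partner receptor, had 40.3, 55.8, 53.8 and 36.5 normalized counts in the vehicle libraries and 53.6, 34.7, 41.0 and 29.2 in the corticosterone libraries. The groups overlapped over most of their range. For *Erbb2* the log2 fold change was -0.23 (SE 0.23, 95% interval -0.73 to 0.27, edgeR adjusted p = 0.707), and it rests on 30 to 57 reads per library. It was -0.42 without corticosterone replicate 5, -0.11 without corticosterone replicate 8, -0.13 without vehicle replicate 2 and -0.12 with the trend with GC content and length removed.

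The 4 ligand genes had the smallest log2 fold changes of the 10 genes in edgeR with all 8 libraries, an order that did not hold with the trend with GC content and length removed (*Nrg2* 0.26, *Nrg1* -0.11). *Nrg3* (ENSMUSG00000041014, chromosome 14 from 38368952 to 39473088), a neuregulin that binds ErbB4, had 864, 843, 850.0 and 895 normalized counts in the vehicle libraries and 767, 925, 893 and 895 in the corticosterone libraries. Corticosterone replicate 5 was the lowest of all 8, and the vehicle libraries varied by only 2.68% around their mean (coefficient of variation). Its log2 fold change was 0.011 (SE 0.077, edgeR adjusted p = 0.962), with a 95% interval of -0.15 to 0.18, the narrowest of the 10 genes.

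*Hbegf* (ENSMUSG00000024486, chromosome 18 from 36504927 to 36515805), the gene of heparin-binding EGF-like growth factor, had 223, 286, 191 and 266 normalized counts after vehicle and 268, 212, 239 and 279.6 after corticosterone. The corticosterone values all lay within the vehicle range, and the log2 fold change was 0.049 (95% interval -0.25 to 0.35, edgeR adjusted p = 0.905).

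*Nrg1* (ENSMUSG00000062991, chromosome 8 from 31814551 to 32884029), the neuregulin that binds ErbB3 and ErbB4, had 57.9, 82.3, 81.2 and 94.8 normalized counts after vehicle and 75.1, 69.4, 79.9 and 87.7 after corticosterone. Here too the corticosterone values lay inside the vehicle range, and the log2 fold change was -0.018 (95% interval -0.38 to 0.35, edgeR adjusted p = 0.974).

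*Nrg2* (ENSMUSG00000060275, chromosome 18 from 36017652 to 36197380), the remaining neuregulin of the 10 genes, ranged from 30.4 to 80.2 normalized counts after vehicle and from 43.8 to 65.1 after corticosterone. Vehicle replicate 1 was the lowest and vehicle replicate 3 the highest of all 8, and the vehicle libraries had a coefficient of variation of 36.0%. *Nrg2* had a log2 fold change of 0.012 with the widest 95% interval of the 10 genes, -0.53 to 0.56 (edgeR adjusted p = 0.986). The sign of the change of *Nrg1*, *Nrg2*, *Nrg3* and *Hbegf* turned under at least 1 alternative each, none of which passed the threshold.

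**Figure D2:**
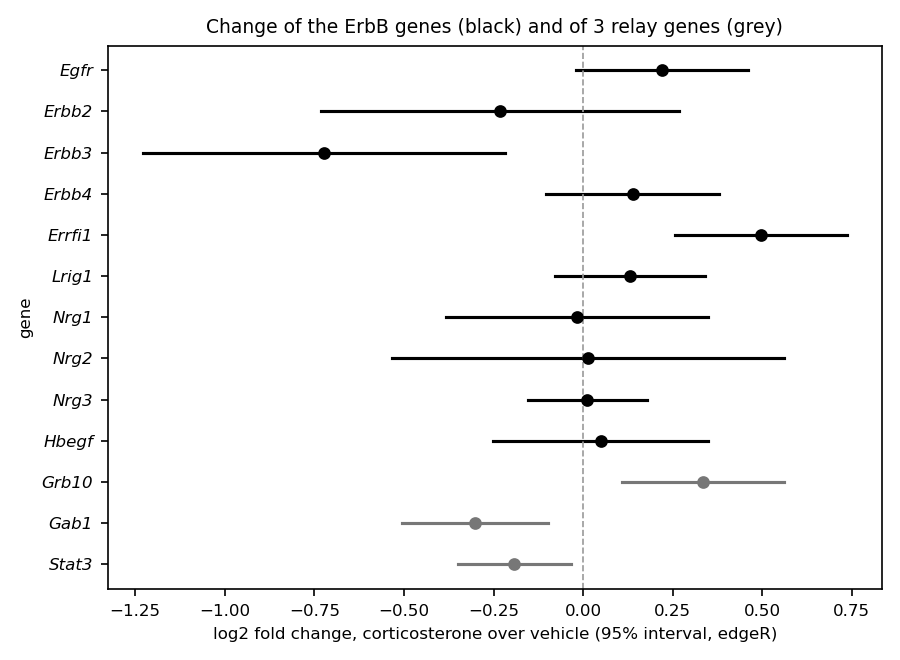
Log2 fold change (horizontal axis) of corticosterone over vehicle with its 95% interval from edgeR, for the 10 ErbB genes (black) and 3 adaptor and kinase genes named in the text (grey). Among the ErbB genes, the intervals of *Errfi1* (0.26 to 0.74) and *Erbb3* (-1.23 to -0.22) do not include 0 before adjustment.

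Levels of different genes were compared per length, in RPKM over the joined exons of each gene. *Errfi1* had the highest level in the vehicle libraries, 14.6 ± 1.90 RPKM (SD, n = 4), above 77.5% of the genes tested. *Nrg3* followed with 6.61 ± 0.177, *Lrig1* with 6.09 ± 0.417 and *Erbb4* with 4.32 ± 0.685 RPKM. *Hbegf* had 2.61 ± 0.462 RPKM, and the other 5 genes were at most 1.33 RPKM in every vehicle library. The ranges of *Nrg3* and *Lrig1* overlapped, whereas the steps from *Errfi1* to *Nrg3*, from *Lrig1* to *Erbb4*, from *Erbb4* to *Hbegf* and from *Hbegf* to *Egfr* were larger than the spread over the 4 libraries. At the lower end of the order, *Egfr* (0.944), *Nrg2* (0.943), *Erbb3* (0.680), *Erbb2* (0.467) and *Nrg1* (0.399 RPKM) each overlapped the next.

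Among the receptors, the level of *Erbb4* per length was 4.07 to 5.02 times that of *Egfr* in all 8 libraries, and that ratio had a median of 4.51 after vehicle and 4.33 after corticosterone. The ratio of *Erbb4* to *Erbb3* was 4.79 to 7.66 after vehicle and 7.73 to 17.95 after corticosterone, with no overlap. Since this ratio was picked after its values were seen, it is given with no test. Among the neuregulins, *Nrg3* was 14.3 to 22.6 times as high as *Nrg1* and 4.88 to 13.1 times as high as *Nrg2*.

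**Figure D3:**
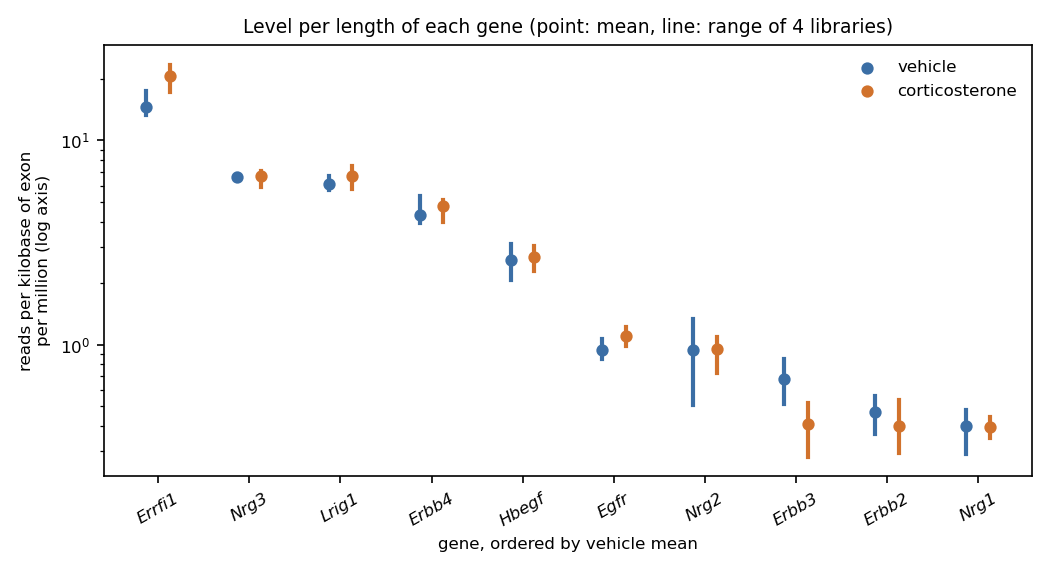
Level of each ErbB gene in reads per kilobase of exon per 1000000 reads (vertical log axis), ordered by the vehicle mean, with the mean as a point and the range of 4 libraries as a line, for vehicle (blue) and corticosterone (orange). *Errfi1* is highest at 14.6 RPKM after vehicle and 20.6 after corticosterone, and *Erbb3* has 0.680 and 0.409 RPKM.

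The 10 genes did not vary as one block over the 8 libraries. The strongest relations on the log2 scale were a Pearson's r of -0.91 between *Errfi1* and *Erbb3* and 0.86 between *Egfr* and *Erbb4*, out of 45 pairs. These are descriptions over libraries that share a treatment split and the position of corticosterone replicate 5. Outside the 10 genes, among 11633 genes with a mean of at least 100 counts, those whose log2 values were most like *Errfi1* over the 8 libraries were *Trp53inp1* (r = 0.98, a stress-induced protein of the p53 pathway), *Rin2* (0.98, an activator of the GTPase Rab5), *Utp4* (0.97, a ribosome assembly factor), *Elovl4* (0.97, a fatty acid elongase) and *Hacd2* (0.97, a dehydratase of fatty acid elongation). Their order over the libraries was nearly that of *Errfi1*, with Spearman's rho from 0.90 to 1. *Trp53inp1* had 312 normalized counts in vehicle replicate 1 and 167 to 194 in the other vehicle libraries, and 245 in corticosterone replicate 5 against 324 to 432 in the other corticosterone libraries. These genes were chosen for their likeness to *Errfi1*, so this placing of the libraries is a description. For the same reason, their fold changes and p values below are no separate support for *Errfi1*. The log2 fold changes were 0.73 for *Trp53inp1*, 0.43 for *Rin2*, 0.14 for *Utp4*, 0.10 for *Elovl4* and 0.40 for *Hacd2*, with adjusted p values from 0.196 to 0.586 in edgeR. Without corticosterone replicate 5 the edgeR adjusted p was 0.0178 for *Trp53inp1*, 0.0170 for *Rin2* and 0.0108 for *Hacd2*, where 10.2% of all genes passed. In edgeR with no filter on low counts it was 0.0184, 0.0326 and 0.0212 for the same genes, where 0.287% of all genes passed. With DESeq2 *Rin2* (adjusted p = 0.0489) and *Hacd2* (0.00642) passed too, and *Hacd2* also passed in edgeR with the trend with GC content and length removed (0.0429). With the trend with GC content and length removed, the log2 fold change was 0.074 for *Utp4* and 0.0057 for *Elovl4*.

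The other genes of the pathway were read from 5 lists written by function. Of their 82 genes, 77 were tested, 0 passed the threshold in edgeR, and 2 were higher and 6 lower at an unadjusted p under 0.05. This is 10.4% of them, beside 9.03% of all genes tested. Their median log2 fold change was -0.033.

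Of the 7 other ligands, 3 were tested. *Tgfa*, the gene of transforming growth factor alpha and the most abundant of them, had a vehicle mean of 576 ± 40.3 normalized counts and a corticosterone mean of 546 ± 26.6 (SD, n = 4 each), a log2 fold change of -0.078 (edgeR adjusted p = 0.721). *Egf* itself had 10 to 24 reads per library and *Btc* 3 to 14. *Areg*, *Epgn* and *Nrg4* had at most 7 reads in any library, and *Ereg* had 0 reads in all 8, which allows up to 0.0196 per 1000000 reads (3 reads over the 8 libraries, counting error only).

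None of the 17 other inhibitors and none of the 9 proteases and iRhoms that release the ligands had an unadjusted p under 0.05 in edgeR, beside 9.03% of all genes. Log2 fold changes of the inhibitors, among them the Sprouty and Spred genes, *Cbl* and *Lrig2*, ran from -0.20 to 0.21. Those of the proteases and iRhoms ran from -0.32, in the iRhom gene *Rhbdf2*, to 0.56. Among the proteases, *Adam10* had 0.13 and *Bace1*, which cleaves neuregulin 1, had -0.055.

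The 38 adaptor and kinase genes held most of the unadjusted differences, 2 higher and 5 lower, which is 18.4% of them beside 9.03% of all genes. In 3 of the 38 genes the groups did not overlap, beside 3.66% of all genes tested. *Grb10*, an adaptor that binds receptor tyrosine kinases, had 472, 642, 569 and 655 normalized counts in the vehicle libraries and 699.9, 786, 770.4 and 692 in the corticosterone libraries. All 4 corticosterone values were above all 4 vehicle values, with a log2 fold change of 0.33 (SE 0.10, edgeR adjusted p = 0.443). *Gab1*, a docking protein that links ErbB receptors to PI3K, had 494, 405, 418 and 425 after vehicle and 372, 344, 372 and 324 after corticosterone. Every corticosterone value was below every vehicle value, with a log2 fold change of -0.30 (SE 0.095, edgeR adjusted p = 0.4497), and its exons overlap an antisense gene. *Stat3*, a transcription factor activated by cytokine and growth factor receptors, had 831 ± 34.2 and 728 ± 37.1 normalized counts (SD, n = 4 each), also without overlap, a log2 fold change of -0.19 (edgeR adjusted p = 0.510). The other differences of this list, whose values overlapped, were *Pik3r1* at 0.24, *Shc3* at -0.30, *Map2k2* at -0.32 and *Pik3r2* at -0.27 on the log2 scale. They are named because there were only 4 of them, after their values were seen. Without corticosterone replicate 5, the edgeR adjusted p was 0.0178 for *Pik3r2*, 0.0408 for *Shc3*, 0.0424 for *Map2k2*, 0.0447 for *Grb10* and 0.0467 for *Gab1*, where 10.2% of all genes passed. With the trend with GC content and length removed, the log2 fold change was -0.069 for *Pik3r2*, -0.12 for *Map2k2*, -0.21 for *Shc3* and 0.16 for *Pik3r1*, and the first 3 of these no longer had an unadjusted p under 0.05 in edgeR.

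Of the 11 genes known to be induced by ERK signalling, 10 were tested, and their median log2 fold change was -0.0996. *Etv5*, a transcription factor, was the only one with an unadjusted p under 0.05 in edgeR, 1 of 10 beside 9.03% of all genes, with a log2 fold change of -0.20 (edgeR adjusted p = 0.545).

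**Figure D4:**
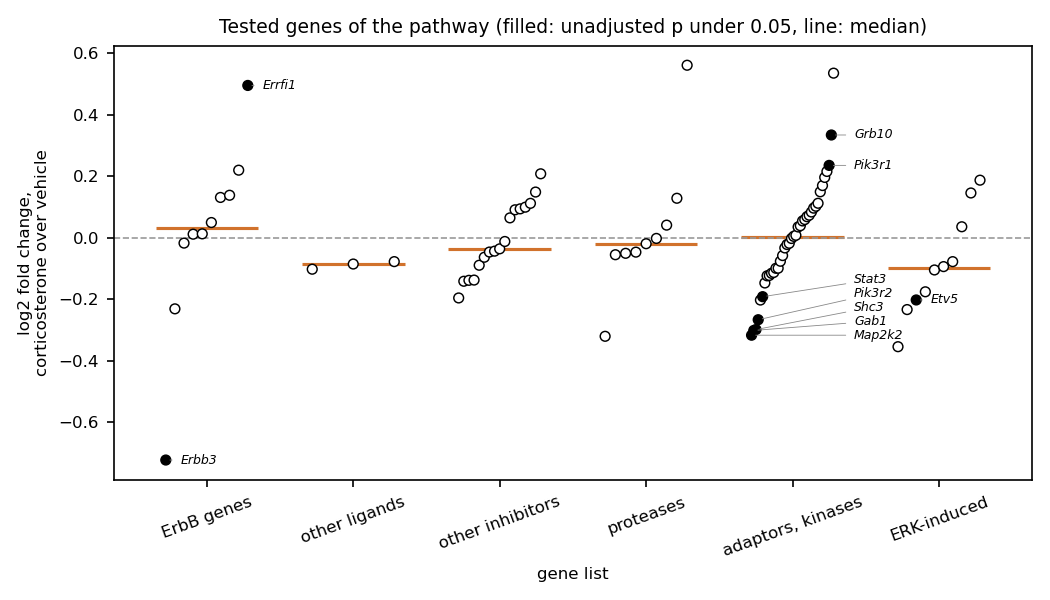
Log2 fold change (vertical axis) of every tested gene of the 10 ErbB genes and the 5 pathway lists, with filled points at an unadjusted p under 0.05 in edgeR and the list median as a line. *Errfi1* (0.50) and *Erbb3* (-0.72) lie at the ends of the ErbB genes, and the list medians lie between -0.0996 and 0.031.

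The dependence on single libraries differed between the genes. Leaving out corticosterone replicate 5 raised the number of ErbB genes with an unadjusted p under 0.05 from 2 to 4 in edgeR, with *Egfr* and *Erbb4* added, and leaving out vehicle replicate 4 did the same for the same genes. The share of all genes at that p value was then 29% and 15.3%. The log2 fold change of *Errfi1* stayed between 0.43 and 0.59 and that of *Erbb3* between -0.85 and -0.59 in the 8 fits that left out 1 library.

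**Figure D5:**
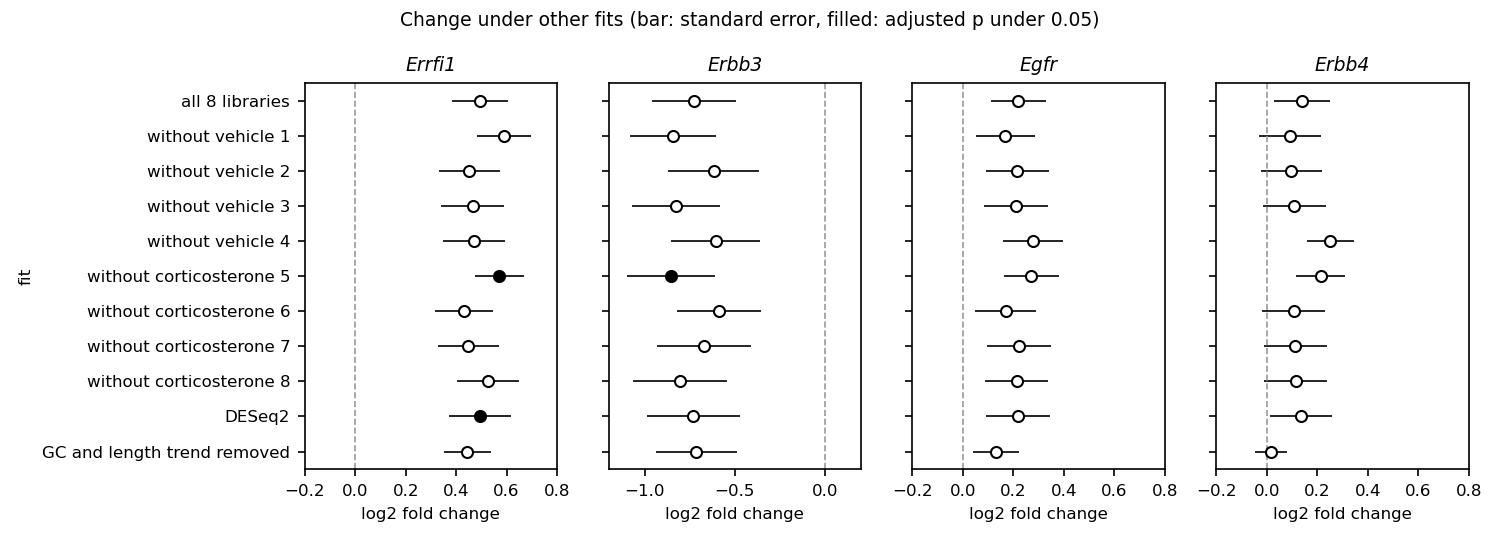
Log2 fold change (horizontal axes) of *Errfi1*, *Erbb3*, *Egfr* and *Erbb4* with all 8 libraries, with each library left out, with DESeq2 and with the trend with GC content and length removed, with the SE as a bar and filled points at an adjusted p under 0.05. *Errfi1* is filled without corticosterone replicate 5 and with DESeq2, *Erbb3* only without corticosterone replicate 5 among these fits, and *Erbb4* comes close to 0 (0.016) once the trend is removed.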

How the data were processed

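RNA-seq was performed by the authors on ventral hippocampus of 8 mice. Per the methods and the submitters' processing notes, reads were checked with FastQC and MultiQC, aligned to mm10 with GSnap and counted per gene with HTSeq. The authors deposited raw counts, 1 column per mouse. All 8 columns were mapped by their names, and 0 were left out. The annotation release and strand setting of the counting are not given in the sources used here, so reads that overlap on opposite strands are uncertain for *Lrig1*, *Erbb2*, *Nrg1*, *Gab1*, *Stat3*, *Pdgfra*, *Pik3r2*, *Bace1*, *Cnp*, *Egf*, *Ereg*, *Hacd2*, *Nrg4*, *Slc32a1* and *Tgfa* among the genes named, and for some genes counted only within lists. The 5 rows of unassigned reads were left out of library sizes (not aligned 6.35% to 8.09%, no feature 5.39% to 5.89%, ambiguous 1.25% to 1.67%, low quality 0.236% to 0.487% and not unique 0.0420% to 0.1106% of reads).

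Symbols, coordinates and exon lengths came from GENCODE M21, which held 50462 of the 50686 identifiers. Promoters came from RefSeq (GRCm38.p6). Normalized counts are counts divided by the TMM-scaled library size and multiplied by its mean over libraries, and log2 values used a prior count of 2. Genes kept by filterByExpr were tested with the quasi-likelihood test of edgeR 4.0.16 (limma 3.58.1, R 4.3.3). Intervals are 95% intervals from that test. They and the p values rest on 4 mice per group and on the depth of 17492159 to 19931987 reads. Alternatives were DESeq2 1.42.0, its size factors or upper-quartile scaling in edgeR, no filter, at least 10 counts in every library, limma-voom, removal of the trend with GC content and length (splines with 5 degrees of freedom), and each library left out. The scripts were tested on simulated data.

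The 10 genes, the lists and the tests were chosen with earlier results of these data known. Named genes were the 10 genes, up to 3 genes per direction and pathway list with an unadjusted p under 0.05 and no overlap between groups, the 5 genes most correlated with *Errfi1* (mean of at least 100 counts), and the most abundant marker per kilobase of each list. Of the markers so chosen, *Cldn5*, *Sst*, *Slc17a7* and *Snap25* are given with values, and the others are not reported here. Other markers and the examples from lists are named as context, after their values were seen.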

Additional observations from a re-analysis of the deposited data

Results flagged for a closer look

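The spread within each group was read for 28 named genes, which makes 56 sets of 4 values. One value stood well away from the rest in 5 of these sets, and about 1 in 20 (2.8 of 56) would by chance alone. *Errfi1* in vehicle replicate 1 had 1194 normalized counts against 910.0 to 956 in the other vehicle libraries. *Rin2* in the same library had 864 against 646 to 678. *Erbb4* in vehicle replicate 4 had 1265 against 927 to 965, and in corticosterone replicate 5 it had 944 against 1176 to 1199.8. *Pik3r1* in vehicle replicate 4 had 1926 normalized counts against 1404 to 1493.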

How the results depend on the processing

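No paired analysis was possible because the groups share no replicate number. In edgeR, 1 of all genes tested passed the threshold. That number was 63 with DESeq2, 79 with no filter, 19 with the trend with GC content and length removed and 0 with at least 10 counts in every library (1330 at an unadjusted p under 0.05), and 0 to 1651 with 1 library left out, the highest without corticosterone replicate 5. Of the ErbB genes, 0 passed in edgeR, 1 with DESeq2 and 1 with no filter (*Errfi1*, with a log2 fold change of 0.49 in both), and 0 to 2 with 1 library left out. Those at an unadjusted p under 0.05 numbered 2, and 2 to 4 with 1 library left out, and the pathway genes 8, and 2 (without vehicle replicate 3) to 28 (without corticosterone replicate 5). Of all genes, 837 of 16185 and 4696 of 16181 were at that p value in those same fits. *Errfi1* ranged from 0.43 to 0.59 with 1 library left out. The sign turned for *Nrg1* with limma-voom (0.0014) and for *Nrg3* with the trend removed (-0.0058). With 1 library left out, it turned for *Nrg1* (-0.14 to 0.076), *Nrg2* (-0.20 to 0.22), *Nrg3* (-0.019 to 0.067) and *Hbegf* (-0.051 to 0.14). Of the 150 values of the 10 genes under alternatives, 132 kept direction and side of the threshold, 4 newly passed it and 14 turned sign. Of the 270 values of 18 other named genes, 249 kept both, 21 newly passed and 0 turned. The cause of these changes was not tested. *Erbb2*, *Erbb3*, *Nrg1* and *Nrg2* had under 100 reads per library, and the effect of depth on them was not tested.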
